A study of Homo sapiens with 6 samples.

Results

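The sterol and fatty acid synthesis genes under control of the sterol regulatory element-binding proteins (SREBPs) were 29 genes, chosen by symbol for their roles in the pathway. Of these, 26 could be read among the 19775 genes of the array data. Each gene was read by its brightest probe set that carries exactly 1 symbol. CYP51A1 (lanosterol demethylase) and FADS1 (a fatty acid desaturase) appeared only on probe sets with several symbols, and FDFT1 (squalene synthase) on none of those named, so they have no value here. The cells were HUVECs, primary endothelial cells of the umbilical vein bought from Lonza, grown in endothelial medium with fetal bovine serum. With the reagent TransIT-X2, 1 group received an siRNA that targets ANRIL, a long noncoding RNA, and the other a scrambled siRNA as control, and total RNA was hybridised to Affymetrix U133 Plus 2.0 arrays, 3 per group. The comparison asked which genes change when ANRIL is targeted. The sources used here give no siRNA dose and no time after transfection. The labels do not say that the 3 samples of a group came from separate cultures, so p-values measure only the spread between these samples, which may be technical.

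SREBPs are made as inactive precursors in the membrane of the endoplasmic reticulum. When membrane sterol is low, the escort protein SCAP carries them to the Golgi, where proteases release the part that enters the nucleus. When sterol is high, the INSIG proteins hold SCAP back. The nuclear part binds sterol regulatory elements, often with the factor NF-Y at a nearby CCAAT box, and raises the genes of cholesterol and fatty acid synthesis together. This makes the mRNA of the enzymes a common readout of the pathway, in endothelial cells as elsewhere.

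The reagent that defines the treated group is shown first. Its strands, as the submitters give them, pair over 25 bases. Both are written 5′ to 3′, with the seed of the antisense strand, bases 2 to 8, in capitals.
ANRIL siRNA, sense strand: ggauaugugccaugaguaagaauaa
ANRIL siRNA, antisense strand: uUAUUCUUacucauggcacauauccau

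Promoters were searched for the sterol regulatory element. The RefSeq promoter table of GRCh38.p14 (250 bases before to 50 after each start) matched 25 of the 29 members. The core CACNCCAC, searched on both strands, occurred in 5 of them (20%), against 7.05% of 27305 genes, and the window of the other 20 did not hold these letters. The full element ATCACCCCAC, which contains that core, occurred in SREBF2 alone among the members and in 0.0586% of all genes. CCAAT, on either strand, occurred in 19 of 25 members (76%) and in 39.7% of all genes. A match is a description of the letters and not a measured binding site. Stretches are shown for 4 of the 5 genes with the core (the other is SC5D), because these include the feedback gene INSIG1 and the gene of SREBP2 itself. The element is in capitals, on the strand of the gene, where GTGG at its start means that it lies on the opposite strand.
SREBF2, chr22:41832947-41833006, plus strand, core at −132: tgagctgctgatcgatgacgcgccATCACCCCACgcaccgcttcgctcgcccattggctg
INSIG1, chr7:155297644-155297703, plus strand, core at −208: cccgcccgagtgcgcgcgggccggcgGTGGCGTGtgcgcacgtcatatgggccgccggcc
IDI1, chr10:1048968-1049027, minus strand, core at −115: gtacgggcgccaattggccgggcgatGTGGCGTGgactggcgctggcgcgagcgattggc
SCD, chr10:100347093-100347152, plus strand, core at −114: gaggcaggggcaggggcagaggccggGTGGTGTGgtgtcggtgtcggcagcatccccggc

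In these 6 arrays no member of the pathway passed the test. On the deposited log2 values, 14 of the 26 were higher with ANRIL siRNA and 12 lower, with a median difference of 0.01. Single differences ran from −0.12 (SCAP) to 0.13 (PMVK), with standard errors of 0.06 to 0.09. By limma's moderated test with Benjamini-Hochberg adjustment over all genes, 0 of 26 members were called, with adjusted p-values of 0.354 to 0.979, and 0 also had an unadjusted p under 0.05. The same fit called 0 of 19775 genes (0%), while 9.83% of genes were higher and 8.16% lower at an unadjusted p under 0.05. The 95% intervals of all 26 members lay between −0.27 and 0.31, that is within 1.20-fold lower and 1.24-fold higher. On this scale and with these probe sets, changes of single genes larger than these bounds lie outside every interval. Smaller ones were not resolved by 3 arrays a group. After the rescalings below, the upper limit for PMVK was 0.36 (cyclic loess) and 0.37 (repeated quantile normalization). For a dimmer probe set of HMGCS1 it was 0.64 on the deposited scale.

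**Figure D1:**
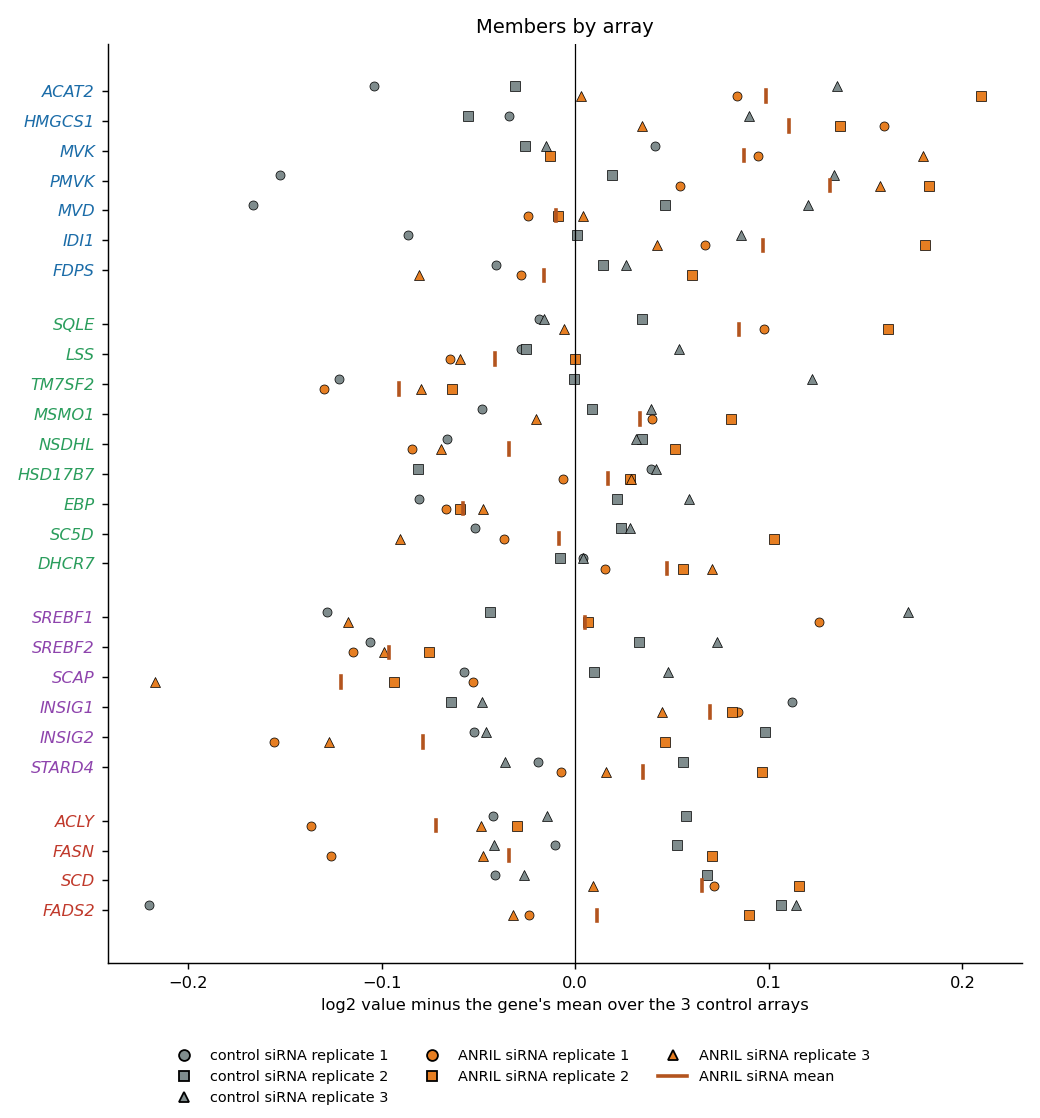
Log2 values of the 26 measured members on each array, minus the mean of the gene over the 3 control arrays (horizontal axis, log2 units), for control siRNA (grey) and ANRIL siRNA (orange), with marker shape for the replicate and a bar for the ANRIL siRNA mean. The groups overlap for every member except DHCR7, and control replicate 1 is the lowest array for 10 of the 26 members.

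Some facts of the whole series touch these values. The targeted transcript, listed as CDKN2B-AS1, was read near the floor of the array (percentile 4.62 of signal), at 4.08, 4.05 and 3.95 in controls against 3.69, 4.05 and 4.05 in the ANRIL siRNA arrays. The groups overlapped (difference −0.10 ± 0.10, adjusted p = 0.606), so a lower level of the target was not detectable with this probe set. The 8 endothelial markers examined, among them PECAM1, CDH5 and VWF, lay at percentiles 78.2 to 99.2 of signal. Markers of other cell types spanned 7.90 (PTPRC) to 55.6 (CD3E) for leukocytes, 8.82 (CDH1) to 43.8 (KRT5) for epithelium, 10.4 (ALB) to 59.2 (TTR) for hepatocytes and 2.10 (ADIPOQ) to 47.9 (CIDEC) for adipocytes. They spanned 1.44 (LUM) to 78.1 (COL1A1) for fibroblasts and 28.1 (LMOD1) to 87.0 (ACTA2) for smooth muscle, and ACTA2 lay within the endothelial range. All 8 endothelial markers were lower with ANRIL siRNA, with 0 called. Their summed level was 15.19 to 15.30 on the log2 scale in control arrays and 15.02 to 15.13 in ANRIL siRNA arrays. These markers lay in deciles 8 to 10 of mean signal, where 15% of all genes were higher with ANRIL siRNA. Summed levels of 4 leukocyte markers (8.19 to 8.33 against 8.38 to 8.53) and 3 hepatocyte markers (8.12 to 8.23 against 8.24 to 8.50) were higher with ANRIL siRNA. Those of 4 smooth muscle markers were lower (10.76 to 10.80 against 10.54 to 10.62), with 0 called in each list. By marker, 3 of 4 leukocyte, 3 of 3 hepatocyte and 2 of 4 smooth muscle markers were higher. ACTA2, the brightest smooth muscle marker (mean signal 10.34), was lower (−0.26), while CNN1 (0.20) and LMOD1 (0.18) were higher. Summed levels of fibroblast, epithelial and adipocyte markers overlapped between groups. The 3′ over 5′ signal of ACTB, a measure of RNA integrity on the log2 scale, was 0.72 ± 0.13 with ANRIL siRNA and 0.54 ± 0.05 with control siRNA (SD, n = 3, two-sided exact permutation p = 0.2, smallest possible 0.1), and that of GAPDH was higher by 0.06 with ANRIL siRNA (exact permutation p = 0.1). Probe sets of high signal tended lower with ANRIL siRNA and dim ones higher, with a median difference of −0.07 in the brightest decile of genes and 0.07 in decile 2. The part of these patterns in the members' values was not tested, apart from the scalings below that remove the trend with signal.

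The regulators of the pathway showed no difference beyond the spread of the arrays. SREBF1, which encodes SREBP1, the form that mainly drives fatty acid genes, was at 7.53, 7.61 and 7.83 in controls and at 7.78, 7.66 and 7.54 after ANRIL siRNA. The groups covered nearly the same range, and the difference was 0.01 ± 0.09 (SE, n = 3 per group, limma adjusted p = 0.979). SREBF2, which encodes the form that mainly drives sterol genes, gave 8.84, 8.98 and 9.02 with control siRNA against 8.83, 8.87 and 8.85 with ANRIL siRNA. Its ANRIL siRNA values lay at the level of the lowest control, and the difference was −0.10 ± 0.07 (adjusted p = 0.448).

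SCAP, the escort protein, had the largest negative difference of the members. Its values were 8.64, 8.71 and 8.75 in controls and 8.65, 8.61 and 8.48 with ANRIL siRNA. One ANRIL siRNA array overlapped the controls, replicate 3 was the lowest, and the difference was −0.12 ± 0.07 (95% interval −0.27 to 0.03, adjusted p = 0.354). The 2 genes that hold SCAP back had opposite signs. INSIG1, itself a strong target of SREBP, gave 11.85, 11.67 and 11.69 in controls and 11.82, 11.82 and 11.78 with ANRIL siRNA. The ANRIL siRNA arrays lay within 0.04 of each other, above control replicates 2 and 3 and below control replicate 1. INSIG1 differed by 0.07 ± 0.07 (adjusted p = 0.588), and without control replicate 1 by 0.13. INSIG2, which is less dependent on SREBP, gave 8.84, 8.99 and 8.85 against 8.74, 8.94 and 8.76, a difference of −0.08 ± 0.07 (adjusted p = 0.588). STARD4, a carrier that moves sterol between membranes, differed by 0.04 ± 0.06.

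Among the enzymes that build farnesyl diphosphate from acetyl-CoA, none passed, and 0 had an unadjusted p under 0.05. Of 7 measured, 5 had positive differences, with a median of 0.10, while 48.6% of all genes were above 0. PMVK, phosphomevalonate kinase, gave 8.51, 8.68 and 8.79 in controls and 8.71, 8.84 and 8.82 after ANRIL siRNA, a difference of 0.13 ± 0.08 (adjusted p = 0.402), which was 0.06 without control replicate 1 and 0.20 without control replicate 3. HMGCS1, which makes HMG-CoA, gave 9.31, 9.29 and 9.44 against 9.51, 9.48 and 9.38, a difference of 0.11 ± 0.07 (adjusted p = 0.400). In both genes control replicate 3 overlapped the treated arrays and the other controls lay below them.

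IDI1, the isomerase that provides the second building block of the chain, gave 11.92, 12.00 and 12.09 against 12.07, 12.18 and 12.05. Its difference was 0.10 ± 0.07 (adjusted p = 0.467), and control replicate 3 again fell among the treated arrays. ACAT2, the thiolase of the first step, and MVK, mevalonate kinase, differed by 0.10 ± 0.08 and 0.09 ± 0.07. MVD, the decarboxylase, and FDPS, farnesyl diphosphate synthase, were level between groups, at −0.01 ± 0.08 and −0.02 ± 0.06. PMVK, HMGCS1 and IDI1 were chosen for values by array after those values were seen, as were SQLE, TM7SF2 and SCD below.

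Downstream of squalene, 4 of 9 measured enzymes were above 0 and 5 below, with a median of −0.01. SQLE, squalene epoxidase, a control point of the sterol branch, gave 11.20, 11.25 and 11.20 in controls and 11.31, 11.38 and 11.21 after ANRIL siRNA. ANRIL siRNA replicate 3 lay among the controls and the other treated arrays above them, with a difference of 0.08 ± 0.06 (adjusted p = 0.499). DHCR7, which carries out a last step of cholesterol synthesis, gave 10.03, 10.01 and 10.03 against 10.04, 10.08 and 10.09. It was the 1 member of 26 whose groups did not overlap, by a difference of only 0.05 ± 0.06 (adjusted p = 0.670). The groups did not overlap, with ANRIL siRNA higher, at 10.6% of all genes, and with ANRIL siRNA lower at 12.8%, where no member was found. In deciles 8 to 10 of mean signal, where DHCR7 and most members lie, these shares were 1.58% and 29.6%.

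The other enzymes of this branch stayed close to 0. MSMO1, a sterol demethylation enzyme, gave 12.24, 12.30 and 12.33 against 12.33, 12.37 and 12.27, a difference of 0.03 ± 0.06. LSS, which closes the sterol rings, differed by −0.04 ± 0.06, and EBP, a sterol isomerase, by −0.06 ± 0.06. NSDHL and HSD17B7, which act in the same demethylation as MSMO1, differed by −0.03 ± 0.06 and 0.02 ± 0.06, and SC5D, a desaturase, by −0.01 ± 0.07. TM7SF2, a sterol reductase, had the lowest difference of the branch, −0.09 ± 0.07 (95% interval −0.25 to 0.07, adjusted p = 0.516), at values of 7.06, 7.18 and 7.31 against 7.05, 7.12 and 7.10.

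The fatty acid genes split evenly, with 2 of 4 above 0 and a median of −0.01. ACLY, which makes cytosolic acetyl-CoA from citrate, gave 12.59, 12.69 and 12.62 in controls and 12.50, 12.61 and 12.59 with ANRIL siRNA, a difference of −0.07 ± 0.06 (adjusted p = 0.551). SCD, the desaturase that makes oleate, gave 11.65, 11.76 and 11.67 against 11.76, 11.81 and 11.70, a difference of 0.07 ± 0.06 (adjusted p = 0.589). Its highest control reached the treated arrays. FASN, fatty acid synthase, differed by −0.03 ± 0.07, and FADS2, a desaturase of polyunsaturated fatty acids, by 0.01 ± 0.09, with control replicate 1 at 9.64 below the other 5 arrays (9.82 to 9.97).

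**Figure D2:**
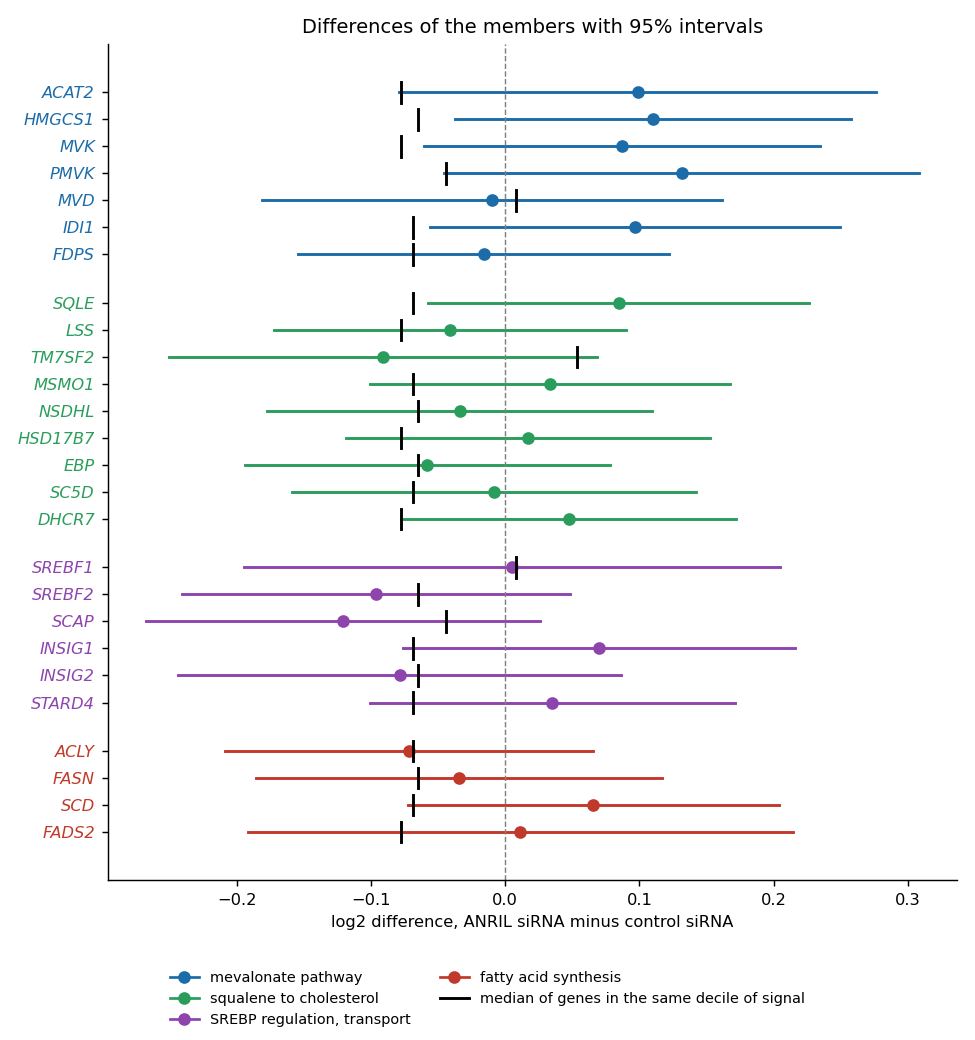
Log2 difference of each measured member, ANRIL siRNA minus control siRNA (horizontal axis), with its 95% interval from the limma fit (n = 3 arrays per group) and, as a black tick, the median difference of all genes in the same decile of mean signal. Every interval includes 0, and 19 of 26 members lie above the tick of their decile.

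The members were mostly read by bright probe sets, so their differences were also set beside genes of like brightness. Of the 26, 21 fell in deciles 8 to 10 of mean signal. In those deciles 15% of all genes were above 0, with a median difference of −0.07. Relative to the median of the own decile, 19 of 26 members were above and 7 below, with a median of 0.07. By role the medians were 0.17 for the mevalonate arm, with 6 of 7 above, 0.06 for the squalene to cholesterol enzymes, with 8 of 9 above, and 0.06 for the fatty acid genes, with 3 of 4 above. The regulators were at −0.01, with 2 of 6 above (INSIG1 and STARD4). TM7SF2 was the furthest below its decile, by −0.14, and SCAP followed at −0.08. These are descriptions and carry no test of the list.

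**Figure D3:**
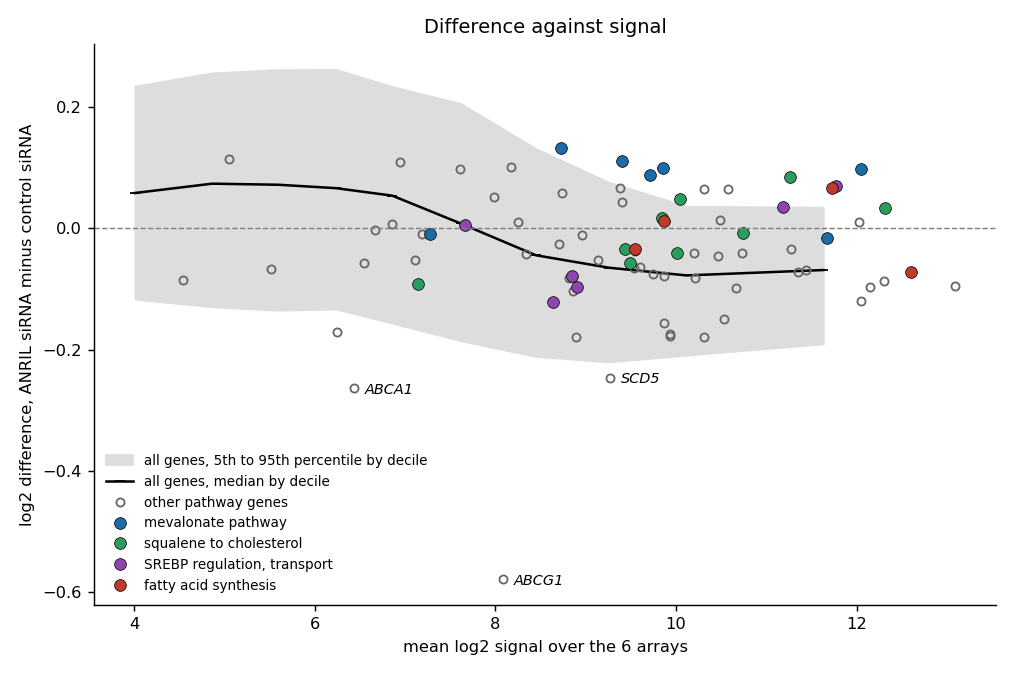
Log2 difference (vertical axis) against mean log2 signal over the 6 arrays (horizontal axis) for the 26 members by role and for 53 other pathway genes (open circles), over the 5th to 95th percentile (grey) and the median (line) of all genes by decile of signal. At high signal most genes lie below 0, most members lie above the line, and ABCG1 stands lowest at −0.58.

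Most members were also above 0 when the arrays were rescaled in ways that remove the trend with signal. After cyclic loess, 21 of 26 members were above 0 with a median of 0.08, against 53.7% of all genes and 53.3% of genes in deciles 8 to 10, whose median was 0.01. Repeated quantile normalization gave 21 of 26 and 0.09. With arrays centred on their medians, which keeps the trend, 8 of 26 were above 0 with a median of −0.04, while 34.4% of all genes were above 0. Centring shifts the difference of every gene by the same amount. The members' position against genes of like brightness is therefore the same as on the deposited scale. The direction of the group against 0 depends on the scaling. The 5 members below 0 after both rescalings were MVD, TM7SF2, SREBF2, SCAP and INSIG2.

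After cyclic loess the groups did not overlap at 7 members, all higher, namely HMGCS1, IDI1, SQLE, MSMO1, DHCR7, STARD4 and SCD, against 11.2% of all genes and 14.3% of those in deciles 8 to 10. At an unadjusted p under 0.05, 9 members were higher and 0 lower, against 7.51% of all genes higher. The mevalonate arm had a median of 0.18. None of the 26 passed over all genes with limma's constant prior (smallest adjusted p = 0.282, for SQLE). On this scale SQLE stood at 11.18, 11.18 and 11.17 in controls and at 11.37, 11.37 and 11.29 after ANRIL siRNA, a difference of 0.17 ± 0.05. The controls agreed within 0.01 and all treated arrays lay above them. SCD stood at 11.63, 11.69 and 11.64 against 11.82, 11.81 and 11.78, a difference of 0.15 ± 0.05.

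With a prior that follows signal intensity and is robust to outlying variances, fitted after cyclic loess, SQLE passed (adjusted p = 0.0442) and SCD did not (0.0503), among 0.298% of all genes called higher. After repeated quantile normalization with that prior both passed (adjusted p = 0.0429 each), among 0.283% of genes. These combined settings were chosen after the data had been seen. On the deposited scale the same prior called 0 members. SQLE kept its call after cyclic loess without ANRIL siRNA replicate 3 (adjusted p = 0.0486) and lost it without any other array, with adjusted p-values of 0.0629 to 0.211. Its difference stayed between 0.15 and 0.19. Other members passed in these smaller fits, INSIG1 without control replicate 1 and ACAT2 and IDI1 without control replicate 3. The share of all genes called in these smaller fits was not counted, so no background stands beside their calls. Without control replicate 1 the number of members above 0 after cyclic loess was 17 and their median 0.06, and without control replicate 3 it was 23 with a median of 0.10.

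**Figure D4:**
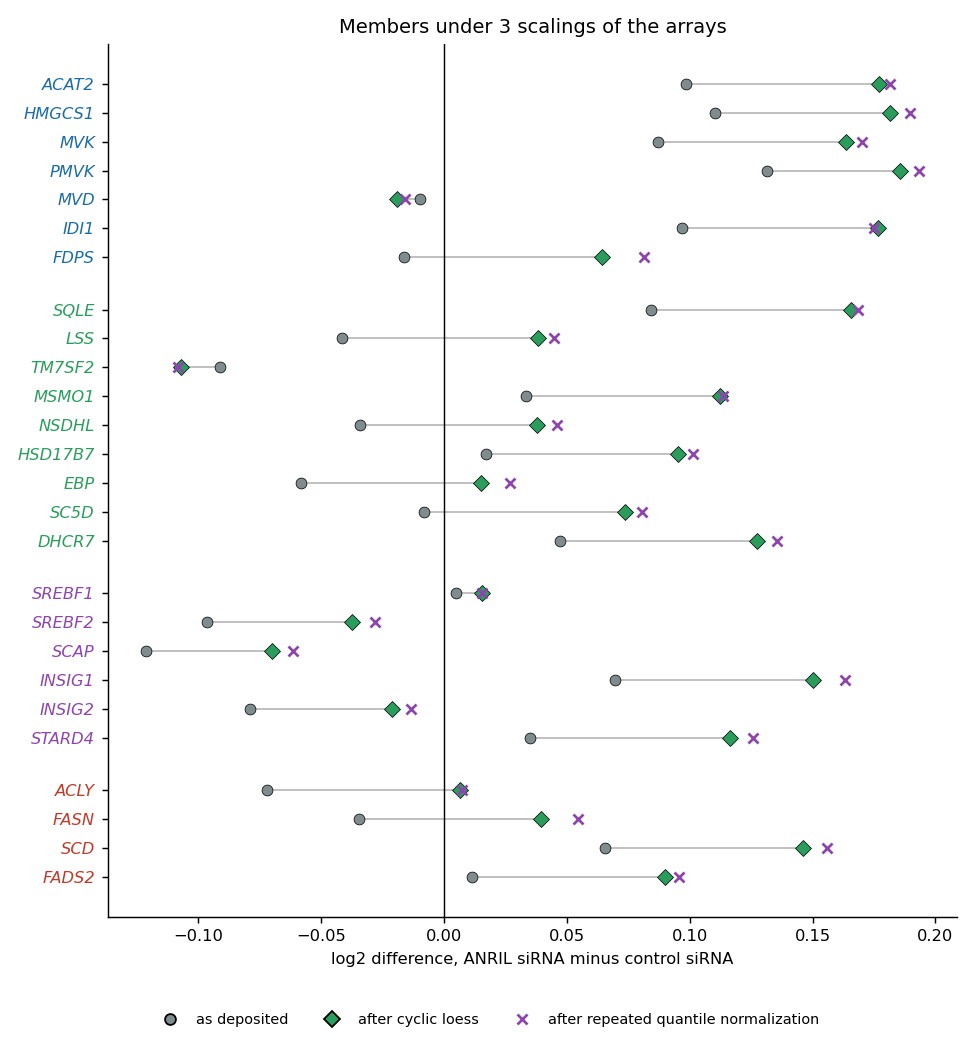
Log2 difference of each measured member, ANRIL siRNA minus control siRNA (horizontal axis), from the deposited values (circles), after cyclic loess (diamonds) and after repeated quantile normalization (crosses). Each rescaling moves 24 of the 26 members to higher values, and 21 lie above 0 after either rescaling, against 14 as deposited.

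Single arrays moved many members at once. On the deposited scale control replicate 1 was the lowest array for 10 of 26 members and ANRIL siRNA replicate 2 the highest for 11, while control replicate 3 was the highest for 9. In the mevalonate arm control replicate 1 was the lowest for 4 of 7 genes and lay 0.13 below the gene means at the median (−0.13). Over all genes in deciles 8 to 10, control replicate 1 was the lowest at 12% and ANRIL siRNA replicate 2 the highest at 16.4%. Without control replicate 1 the median difference of the members was −0.04 with 12 above 0, and without control replicate 3 it was 0.04 with 16 above 0.

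Other probe sets of the same genes gave a mixed picture. Of 16 members with several probe sets, 9 had 1 sign at all of them: HMGCS1, SQLE, DHCR7, SREBF1, INSIG1 and FADS2 higher, and SC5D, ACLY and FASN lower. All 4 probe sets of SQLE lay between 0.08 and 0.17, and the 3 of INSIG1 between 0.04 and 0.13. The dimmer probe set of HMGCS1 gave 7.02, 7.43 and 7.63 in controls and 7.71, 7.82 and 7.57 after ANRIL siRNA. Control replicate 1 stood apart there, and the difference was 0.34 ± 0.14 (adjusted p over all probe sets 0.297), the only one of the 56 with an unadjusted p under 0.05. The second probe set of SREBF1, dim at a mean signal of 6.13, differed by 0.14 ± 0.06 (adjusted p = 0.335), with no overlap between groups. In the decile of genes that spans this signal, 72.1% were above 0, with a median of 0.07. Dimmer probe sets of INSIG1 (0.13) and EBP (0.14) also had no overlap, higher, and one of ACLY (−0.11) lower. The groups did not overlap at 10.6% of all genes in the higher direction and 12.8% in the lower. In deciles 8 to 10 of mean signal these shares were 1.58% and 29.6%. Probe sets of EBP ranged from −0.16 to 0.14, those of IDI1 from −0.12 to 0.12 and those of MVK from −0.11 to 0.13, so their signs were mixed. For IDI1 the bright probe sets (mean signal 12.05 and 12.02) gave 0.10 and 0.12. Its negative values came from dimmer ones (mean signal 7.11 and 4.57).

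Other genes around the pathway were 63 by a list from general knowledge, of which 53 were measured. None was called. At an unadjusted p under 0.05, 0 were higher and 7 lower (13.2%, against 8.16% of all genes and 16.7% of those in deciles 8 to 10). The groups did not overlap at 2 higher and 14 lower (26.4%, against 12.8% of all genes). Of the 14, 12 were among the 33 genes in deciles 8 to 10 (36.4%), where 29.6% of all genes had no overlap in the lower direction, and the other two were ABCG1 and IDI2. The median was −0.06, and 0.00 after cyclic loess. On that scale 3 were higher (5.66%) and 4 lower (7.55%) at an unadjusted p under 0.05. The shares of all genes there were 7.51% higher and 5.88% lower. The proteases that cut SREBP, MBTPS1 and MBTPS2, differed by −0.08 ± 0.08 and −0.04 ± 0.08. GGPS1, which makes geranylgeranyl diphosphate from the product of FDPS, gave 10.54, 10.65 and 10.62 with control siRNA against 10.43, 10.52 and 10.41, a difference of −0.15 ± 0.06 (adjusted p = 0.250). IDI2, a paralog of IDI1 with a dim probe set, gave 6.36, 6.35 and 6.29 against 6.16, 6.07 and 6.26, a difference of −0.17 ± 0.07 (adjusted p = 0.226). LIPA, the lysosomal lipase that frees cholesterol from esters, gave 9.95, 9.97 and 9.94 against 9.79, 9.82 and 9.77, a difference of −0.16 ± 0.06 (adjusted p = 0.205). In all 3 genes the ANRIL siRNA arrays lay below every control.

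In the fatty acid branch, SCD5 is a further stearoyl-CoA desaturase. It gave 9.33, 9.50 and 9.36 in controls and 9.15, 9.17 and 9.13 after ANRIL siRNA, with no overlap and a difference of −0.25 ± 0.06 (adjusted p = 0.154). Of its 4 probe sets 1 was higher, and their mean differed by −0.12 (adjusted p = 0.332). FADS3, a relative of FADS2, gave 10.37, 10.46 and 10.35 against 10.22, 10.28 and 10.14, with no overlap and a difference of −0.18 ± 0.06 (adjusted p = 0.203). With the intensity-trended robust prior SCD5 passed (adjusted p = 0.0305), as did ABCG1 (0.000445), among 2.15% of all genes called lower. SCD5 was not called after cyclic loess or repeated quantile normalization with that prior, while ABCG1 was (0.00485 and 0.00555).

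ABCG1, which exports cholesterol and is raised by the sterol sensor LXR, gave 8.40, 8.48 and 8.24 against 7.97, 7.70 and 7.72. It was 1.49-fold lower on the array scale (−0.58 ± 0.09, adjusted p = 0.125). ABCA1, the other LXR-driven exporter, gave 6.68, 6.75 and 6.28 against 6.41, 6.36 and 6.14, a difference of −0.26 ± 0.12 (adjusted p = 0.276), with overlap at control replicate 3. Among other genes that LXR raises, SREBF1 and SCD differed by 0.01 ± 0.09 and 0.07 ± 0.06, MYLIP by −0.06 ± 0.07, LPCAT3 by 0.11 ± 0.08 and APOE by −0.01 ± 0.06. Of the 10 measured genes listed for LXR and sterol efflux, 2 were above 0 and 8 below, with a median of −0.03. Relative to the median of the own decile of signal, 5 were above and 5 below, with a median of −0.02. After cyclic loess 4 were above 0, and after repeated quantile normalization 5. With _s_at and _x_at probe sets dropped, ABCG1 was read by another probe set, which differed by −0.35. Of the 4 probe sets of ABCG1, 1 was higher, and their mean differed by −0.27.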

How the data were processed

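The deposited table holds log2 values of 54675 probe sets on 6 arrays, 1 column per array, and per the submitters' processing notes RMA, affy and limma were used to make it. RMA corrects background, normalizes quantiles across arrays and summarises probes on the log2 scale. From these values, 62 control probe sets were left out. Probe sets were named by the platform annotation, with symbols updated by Entrez identifier through RefSeq (GRCh38.p14), and 41091 of 54613 carried exactly 1 symbol. Each of 19775 genes was represented by the probe set of highest mean over all arrays. The difference of each gene was fitted in limma 3.58.1 (lmFit, then eBayes; R 4.3.3), adjusted over all genes by the Benjamini-Hochberg method at 0.05, two-sided, after the fit had been tested on simulated data. In that simulation the changes were larger than the differences of the members, and the values held no trend with signal. It therefore does not show how well differences as small as these are found. Other probe sets were adjusted over all 54613. The number of arrays limits the precision.

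The members and lists were chosen with earlier results of these data known. Values by array are given for the SREBF, SCAP and INSIG genes, members with no overlap or an unadjusted p under 0.05, the 2 brightest members, and, outside the members, the 6 pathway genes of smallest p with no overlap. HMGCS1, PMVK, IDI1, SQLE, SCD, TM7SF2, ABCA1, MBTPS1, MBTPS2, MYLIP, LPCAT3 and APOE were added after their values were seen. Replicate numbers gave no clear sign of pairing. Deviations of same-numbered arrays correlated at 0.04, 0.18 and −0.02 over genes, and those of differently numbered arrays at −0.21 to 0.18. These correlations cannot show that the samples were unpaired. The numbers were used only in an alternative.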

Additional observations from a re-analysis of the deposited data

How the results depend on the processing

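With limma, 0 members were called under the constant prior, the intensity-trended robust prior, the replicate block, array weights, rescaling, array centring, the filter at the median signal, both other rules for probe sets, a threshold of 0.1 and each array left out. Calls of members came only from settings chosen after the data were seen, with 1 higher for cyclic loess and 2 for repeated quantile normalization, each with the trended prior. Leaving out 1 array after cyclic loess with that prior, also chosen after the data were seen, called 0 to 2 members. Over all genes, calls higher and lower numbered 115 and 426 with the trended prior, 1 and 31 with centred arrays, 55 and 254 above the median signal, 59 and 75 for cyclic loess with the trended prior, and 56 and 70 for repeated quantile normalization with it. Among other pathway genes 2, 1, 2, 1 and 1 were called lower under these settings. The replicate number as a block left the count of called genes at 0 and the members' median at 0.01.

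The members' median moved to 0.0887 with repeated quantiles and 0.0817 with cyclic loess, under either prior. Members above 0 numbered 8 with centred arrays and 9 of 17 when _s_at and _x_at probe sets were dropped. Members with no overlap, higher, numbered 9 with repeated quantiles, 7 with cyclic loess, 0 with centred arrays and 0 without those probe sets. Leaving out 1 array gave 2 to 5, and in the lower direction 0 to 7, where fewer arrays make overlap less likely by construction. In the lower direction 1 was found with centred arrays. The share of all genes with no overlap, higher, was 11.6% with repeated quantiles and 11.2% with cyclic loess. In deciles 8 to 10 it was 14.3% under each. For centred arrays, dropped probe sets and single arrays left out, this share was not counted. No background stands beside those counts. The causes were not tested. Of the 26 members, 10 kept the sign of their difference under every alternative that could read them: ACAT2, HMGCS1, MVK, PMVK, SQLE, INSIG1 and SCD above 0, and TM7SF2, SCAP and INSIG2 below. A change of prior, the replicate block and the filter at the median signal leave a difference unchanged by construction. Without _s_at and _x_at probe sets, ACAT2, PMVK, TM7SF2 and SCD had no value, and the signal filter left out TM7SF2. Single probe sets of MVK and of SCD had both signs.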
